A study of Mus musculus with 20 samples.

Results

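The genes described here are 10 that separate kinds of fibroblast, the cells that make and maintain the connective tissue of the heart. They were chosen as every probe that the platform annotation names Pi16, Mfap4, Tcf21, Dpep1, Pdgfra, Dcn, Lum, Postn, Dpt or Gsn, which gave 18 of the 45281 probes on the array. Of these 18 probes, 13 probes of 9 genes were bright enough to test, among 20097 tested probes in all. Pi16, Mfap4, Tcf21, Dpep1 and Dpt have 1 probe each, Pdgfra, Lum and Gsn have 2, Postn has 3 and Dcn has 4.

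RNA came from the appendages of the left atrium (LA) and the right atrium (RA) of CD1 mice 12 weeks old. 5 mice were heterozygous for the mutation under study (het) and 5 were wild-type littermates (wt), which gives 4 groups of 5 Illumina bead arrays: LA wt, LA het, RA wt and RA het. The labels do not say how the allele was made, and they list no other treatment or transgene in either genotype. The genotype labels were not checked against the arrays here.

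Fibroblasts share a core of matrix and receptor genes, here Pdgfra, the receptor for platelet-derived growth factor A that marks resting cardiac fibroblasts, with decorin (Dcn), lumican (Lum) and gelsolin (Gsn). Adventitial or universal fibroblasts, found around vessels and beneath the outer surface of organs, express Pi16 and dermatopontin (Dpt), while fibroblasts lying within the muscle are marked by other sets that include Tcf21. Periostin (Postn) appears when fibroblasts are activated by injury or load. Each sample is a whole piece of tissue, so fewer cells of a type and less RNA per cell cannot be told apart in any value below.

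Between 17316 and 19422 probes were detected per array, and pairs of arrays correlated between 0.948 and 0.990. Intensities are on the authors' linear scale, already corrected for background and normalized across arrays. All 16 general fibroblast markers fixed as a list, among them Pdgfra, Dcn and Gsn, were detected on some array. Their summed intensity lay between 37990.8 and 46869.2 in LA wt, 41708.3 and 44900.8 in LA het, 43237.4 and 51175.8 in RA wt and 38837.5 and 47856.3 in RA het. The 4 ranges overlap. A large part of each sum is the brightest Dcn probe (20933.1 to 29382.7), so the overlap does not show that fibroblast content was alike. The atrial cardiomyocyte markers summed to 136478 or more on every array. A group of 3 right atrial arrays (RA wt replicate 1, RA het replicates 1 and 4) lay below all other arrays in 5 of the 13 tested probes. These were both Lum probes, 2 of the 4 Dcn probes and Gsn. Of all tested probes, 5.05% (1014 of 20097) were likewise lowest on these arrays, which were picked by Lum. Side differences of the 5 member probes are given below with and without these arrays. LA het replicates 1, 2 and 4 and RA het replicate 1 had an intensity above 100 for Ucp1, a brown fat gene, against 6.3 or less on the other 16 arrays.

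For 4 of the 5 genes that differed between the atria, RefSeq holds a sequence next to the start of the gene, shown here as the 250 bases before the start on the coding strand (build GRCm38.p6). They are printed because these genes differed by side in opposite directions. Capitals mark the letters CANNTG, the E-box recognised by basic helix-loop-helix factors such as Tcf21, read on both strands. Pi16 lies at chr17:29318632-29318881 on the plus strand, Tcf21 at chr10:22820144-22820393 on the minus strand, Dpep1 at chr8:123185985-123186234 on the plus strand and Dpt at chr1:164796413-164796662 on the plus strand.
Pi16: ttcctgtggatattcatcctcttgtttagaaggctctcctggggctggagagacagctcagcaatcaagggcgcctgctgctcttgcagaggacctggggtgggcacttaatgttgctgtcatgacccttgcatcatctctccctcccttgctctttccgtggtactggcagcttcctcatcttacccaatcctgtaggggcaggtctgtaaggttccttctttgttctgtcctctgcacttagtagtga
Tcf21: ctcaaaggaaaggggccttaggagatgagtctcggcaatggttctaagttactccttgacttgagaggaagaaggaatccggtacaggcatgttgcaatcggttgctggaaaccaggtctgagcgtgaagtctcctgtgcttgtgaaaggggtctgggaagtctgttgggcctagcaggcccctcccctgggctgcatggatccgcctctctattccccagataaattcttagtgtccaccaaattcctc
Dpep1: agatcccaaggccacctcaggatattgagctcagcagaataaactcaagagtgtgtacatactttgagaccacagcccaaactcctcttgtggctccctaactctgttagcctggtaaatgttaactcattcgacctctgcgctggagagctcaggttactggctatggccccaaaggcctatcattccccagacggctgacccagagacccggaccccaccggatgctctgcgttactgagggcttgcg
Dpt: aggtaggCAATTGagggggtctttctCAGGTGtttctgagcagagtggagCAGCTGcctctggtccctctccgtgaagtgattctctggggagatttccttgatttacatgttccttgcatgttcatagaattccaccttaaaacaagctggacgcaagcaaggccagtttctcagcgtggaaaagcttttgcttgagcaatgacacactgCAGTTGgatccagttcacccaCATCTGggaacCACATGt
The Dpt window held 6 CANNTG motifs, at 243, 224, 200, 39, 18 and 7 bases before the start, none overlapping another. The Pi16, Tcf21 and Dpep1 windows held 0. Of 32851 windows of the same length, 66.2% held CANNTG, with a mean of 1.16 per window. The share with as many as the Dpt window was not counted. In all, 7 of the 10 genes matched the table, with 10 windows. A match describes the letters and shows no binding.

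The first question was which fibroblast genes differ between the left and right atrial appendages of wild-type mice. Pi16 and Mfap4 were higher in the left atrium, by 3.47-fold and 2.21-fold, while Tcf21 and Dpep1 were higher in the right, by 1.99-fold and 1.89-fold. Pi16, a secreted peptidase inhibitor of adventitial fibroblasts, and Tcf21, the transcription factor needed for fibroblasts to form from the epicardium, thus lay on opposite sides. Of the 13 tested probes 4 were called, against 3.26% of all tested probes (656 of 20097). In direction, 2 were higher in LA (background 1.54%) and 2 higher in RA (background 1.73%). Called means a Benjamini-Hochberg adjusted p under 0.05 in limma over all tested probes. The median difference of the 13 probes was -0.22 on the log2 scale, against 0.010 over all tested probes. All differences are of log2(intensity + 16), an offset that understates changes of dim probes.

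In heterozygous mice the same comparison called 4 of 13 probes, against 2.55% of all (512 of 20097): Pi16 and Mfap4 higher in LA, Tcf21 and Dpt higher in RA. The backgrounds for these directions were 1.23% and 1.32%. With both genotypes averaged, 5 of 13 were called, against 7.20% of all (1447 of 20097), namely Pi16, Mfap4, Tcf21, Dpep1 and Dpt. Of these, 2 were higher in LA (background 3.74%) and 3 in RA (background 3.46%). The averaged comparison uses the same arrays as the other comparisons of the sides and adds no further samples.

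Pi16 had intensities of 2150.9, 1859, 1601.4, 1486.5 and 1869.8 in LA wt (replicates 1 to 5) and of 276, 813.8, 417.9, 912.8 and 362.2 in RA wt. In LA het it stood at 2429.1, 1922.2, 2613.2, 2360.4 and 2043, and in RA het at 1437.6, 603.2, 420.5, 660.6 and 502.6. Each of the 10 left arrays lay above each of the 10 right arrays, although RA het replicate 1 came close to the lowest left array. The log2 difference was 1.80 (SE 0.30, 95% interval 1.17 to 2.42, n = 5 arrays per group, limma adjusted p = 0.000971) in wild-type and 1.76 (interval 1.13 to 2.39, adjusted p = 0.00185) in heterozygous mice. Averaged over the genotypes it was 1.78 (SE 0.21, adjusted p = 1.1e-05).

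Mfap4 encodes a glycoprotein of the microfibrils that surround elastic fibres. Its intensities were 1410.8, 1255.1, 1782.8, 1066.9 and 1333.3 in LA wt and 398.6, 974.9, 544.4, 744.3 and 498.9 in RA wt. In heterozygous mice they were 1873.4, 2039, 2099.2, 1505.5 and 1449.2 in LA and 669.5, 928.4, 764.9, 437.8 and 372.4 in RA. The sides did not overlap on any of the 20 arrays. The log2 difference was 1.14 (SE 0.24, n = 5 per group, limma adjusted p = 0.00829) in wild-type and 1.54 (adjusted p = 0.000784) in heterozygous mice, or 2.90-fold.

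Tcf21 lay the other way, with intensities of 485.3, 342.8, 499.6, 303.7 and 319.4 in LA wt and of 721.6, 600.5, 809, 825.4 and 978.1 in RA wt. In heterozygous mice they were 395.3, 466.4, 452.6, 495.1 and 405.9 in LA and 763.6, 891.6, 770.8, 576.3 and 686.8 in RA. Here too the left and right arrays were fully separate, with every left array at 499.6 or less. How many of all tested probes separate in this way was not counted. The log2 difference, left minus right, was -0.996 (SE 0.15, n = 5 per group, limma adjusted p = 0.00044) in wild-type and -0.71 (adjusted p = 0.0136) in heterozygous mice.

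Dpep1, a membrane dipeptidase that cleaves small peptides outside the cell, had intensities of 244, 306.5, 163, 253.9 and 548.6 in LA wt and 414.8, 753.8, 566.2, 567.1 and 475.8 in RA wt. LA wt replicate 5 lay inside the range of RA wt, and the other left arrays lay below it. In LA het it stood at 256, 377.7, 295.7, 334.5 and 241.7, below all 5 RA het arrays at 407.4, 775.9, 533.5, 467.9 and 595.9. The log2 difference was -0.92 (SE 0.24, n = 5 per group, limma adjusted p = 0.0363) in wild-type and -0.84 (adjusted p = 0.0735, not called) in heterozygous mice, and -0.88 (adjusted p = 0.00188) averaged over the genotypes. The wild-type call was lost without any of LA wt replicates 1 to 4 or RA wt replicates 2 to 5 (adjusted p 0.0535 to 0.109).

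Dpt, a matrix protein that helps collagen fibrils assemble, had intensities of 5390.6, 3852.1, 3916.8, 3344.1 and 3696.8 in LA wt and 4576.3, 3970.9, 4144.7, 5291.7 and 5362.7 in RA wt. These groups overlapped through LA wt replicate 1, the brightest of the 20 arrays for this gene. In heterozygous mice the values were 3315.9, 3445.9, 3604.9, 3464.3 and 3777.1 in LA and 5202.4, 5186.6, 4635.9, 4895.8 and 4629.1 in RA, with no overlap. The log2 difference was -0.22 (SE 0.12, n = 5 per group, limma adjusted p = 0.502, not called) in wild-type and -0.48 (adjusted p = 0.0284, 1.39-fold higher in RA) in heterozygous mice. Whether the sides differed more in heterozygous than in wild-type mice was tested and not called (log2 difference of differences -0.26, SE 0.16, adjusted p = 1). The heterozygous call was lost without LA het replicate 1, 2, 3 or 4 or RA het replicate 1, 2 or 4 (adjusted p 0.0521 to 0.0781). Dpt and Pi16, both counted among universal fibroblast genes, were thus higher on opposite sides in heterozygous mice.

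**Figure D1:**
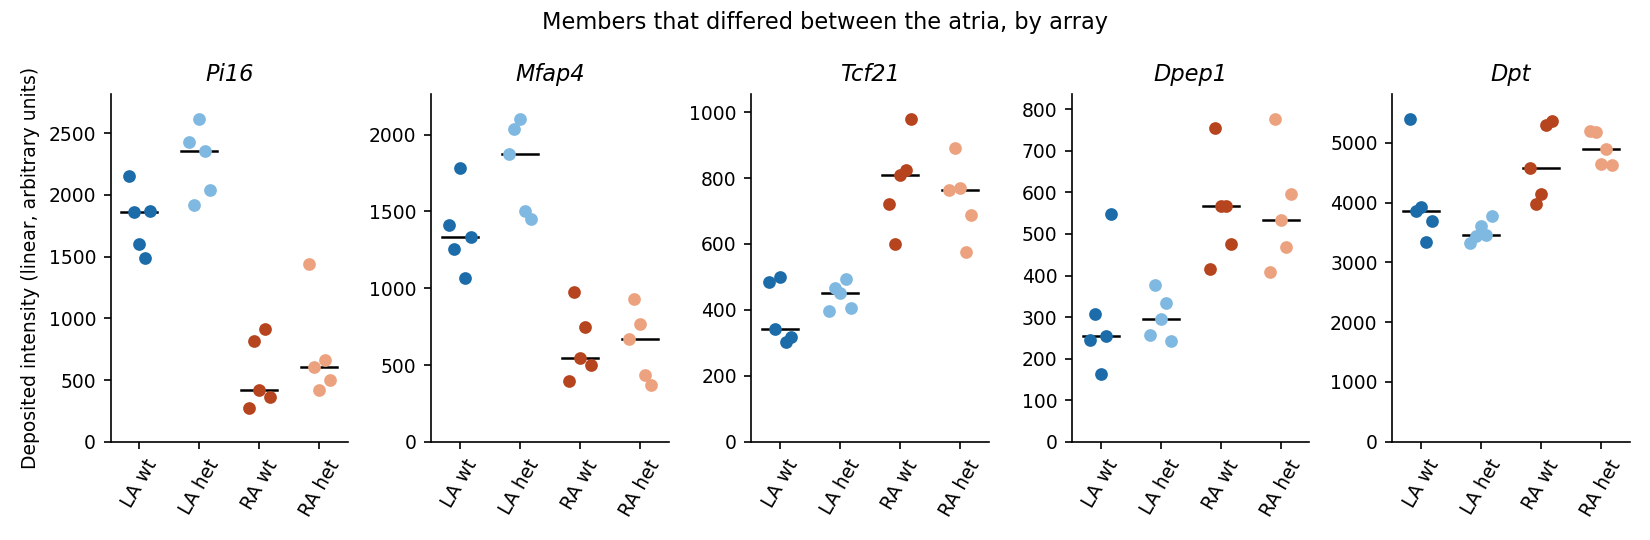
Deposited intensity (linear, arbitrary units) of Pi16, Mfap4, Tcf21, Dpep1 and Dpt on each of the 20 arrays, by group (LA wt, LA het, RA wt, RA het, 5 arrays each). Points are arrays and bars are group medians, each panel has its own scale from 0, and the left and right arrays do not overlap for Pi16, Mfap4 and Tcf21.

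The core genes gave no call between the sides. Pdgfra (ILMN_1235932) ranged from 1512.2 to 1912.5 in LA wt, 1509.8 to 2099.2 in LA het, 1440.3 to 1722.8 in RA wt and 1330.2 to 2071.2 in RA het. The groups overlapped throughout. Its log2 difference was 0.15 (95% interval -0.10 to 0.39) in wild-type and 0.13 (-0.11 to 0.37) in heterozygous mice, so a difference above 1.31-fold lay outside the wild-type interval. The spread of Pdgfra within groups was an SD of 0.17 on the log2 scale, below that of 79.3% of tested probes. Its second probe (ILMN_2544724) was detected on 2 of 20 arrays and not tested.

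Dcn and Lum encode small leucine-rich proteoglycans that bind collagen and set the width of its fibrils, and they lie next to each other on chromosome 10. The first Lum probe (ILMN_2773259) ranged from 3190.6 to 4419 in LA wt, 3414.9 to 3773.9 in LA het, 2150.9 to 3785.4 in RA wt and 2019.7 to 3406.7 in RA het. Only the heterozygous groups were separate, by a narrow margin. Its log2 difference was 0.29 (limma adjusted p = 0.546) in wild-type, 0.45 (adjusted p = 0.199) in heterozygous and 0.37 (SE 0.12, adjusted p = 0.059) in all mice, none called. The averaged difference was called in 8 of 34 other settings, with an adjusted p from 0.0303 to 0.794 over all of them. The second Lum probe (ILMN_3001540) gave 0.27, 0.49 and 0.38 in the same order, again not called (averaged adjusted p = 0.165).

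Of the 4 Dcn probes, the brightest (ILMN_2747959) ranged from 20933.1 to 29382.7, near the highest intensity on the arrays (38625.9), where bead signals can be compressed. Its log2 difference was -0.20 (interval -0.39 to -0.01, limma adjusted p = 0.367) in wild-type and -0.09 (-0.28 to 0.09) in heterozygous mice. The second brightest (ILMN_2596346) gave -0.23 (-0.74 to 0.27) and 0.06 (-0.45 to 0.56). The dim probes ILMN_2604695 and ILMN_1254458, at 9.1 to 238.6 and 19 to 217, gave wide intervals and no call. The 3 probes other than ILMN_1254458 carry the same transcript accession.

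Gsn encodes an actin-severing protein with a secreted plasma form. Its tested probe (ILMN_2679386) lay between 28.3 and 361.4 over all arrays, with log2 differences of -0.43 (interval -1.65 to 0.79) in wild-type and 0.73 (-0.49 to 1.94) in heterozygous mice, not called. Its spread within groups, an SD of 1.01, exceeded that of 99.3% of tested probes. The other Gsn probe was detected on 0 of 20 arrays. The 3 Postn probes were detected on 0, 0 and 3 of 20 arrays, and the brightest (ILMN_2766028) lay between -5.2 and 33.4, so Postn had no testable signal on any side or genotype at this sensitivity.

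**Figure D2:**
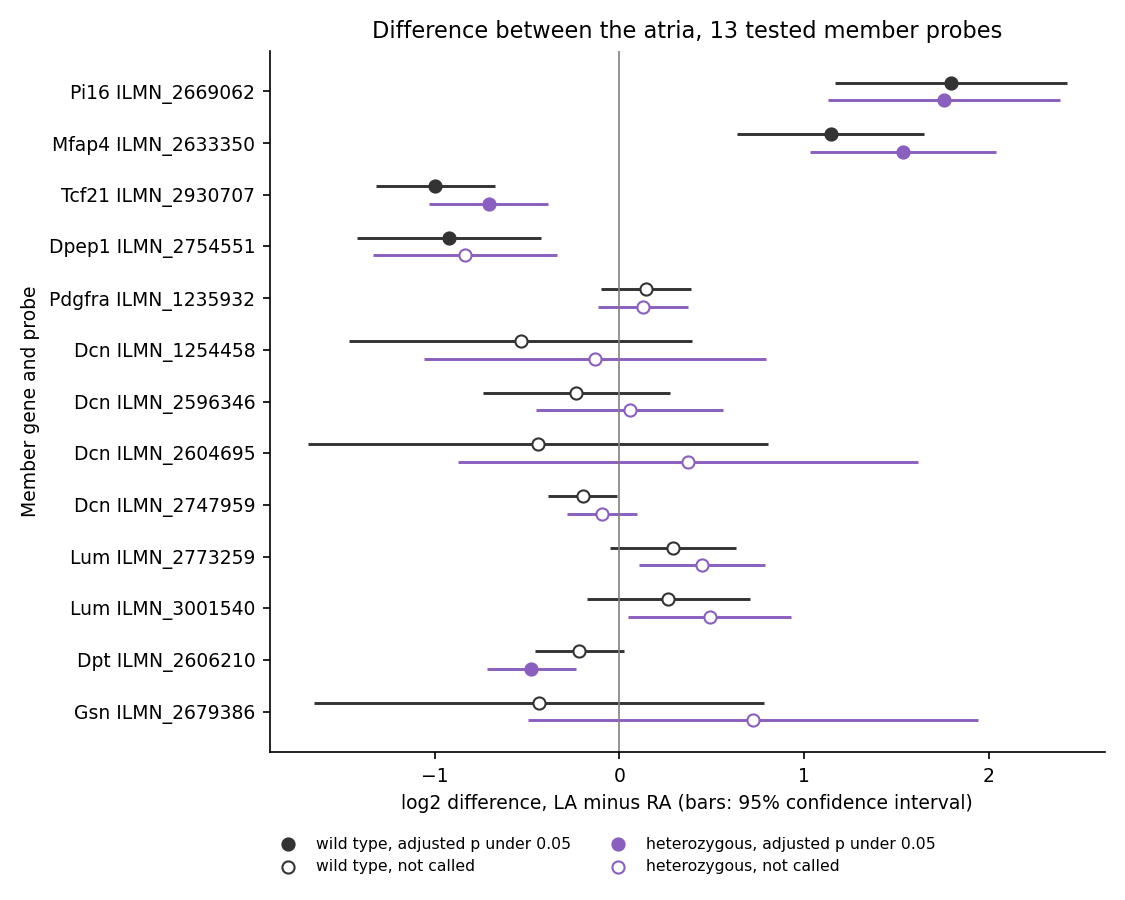
Difference of log2(intensity + 16), left minus right atrium, for the 13 tested probes in wild-type (black) and heterozygous (purple) mice, with 95% intervals from limma and filled points for an adjusted p under 0.05. Pi16 and Mfap4 lie above 0.5 and Tcf21 and Dpep1 below -0.5 in both genotypes, and the widest intervals are those of Gsn and of Dcn ILMN_2604695.

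The 3 right atrial arrays named above were picked after seeing the data, as the right arrays lowest for Lum. Their low Lum values are therefore given by the choice, and what follows describes these arrays with no test. Dcn ILMN_2596346 stood at 4985.1, 4065.7 and 4992.8 on RA wt replicate 1 and RA het replicates 1 and 4, and between 6057.6 and 10734.4 on the other arrays. Dcn ILMN_2604695 stood at 10.3, 9.1 and 16, against 38.9 to 238.6 elsewhere. The first Lum probe stood at 2150.9, 2019.7 and 2066.3, against 2714.6 to 4419, and the second at 1367.9, 1406.6 and 1319.5, against 2051.6 to 3608.3. Gsn stood at 28.3, 37.8 and 47.9, against 51 to 361.4. Dcn ILMN_2747959, on the same transcript as the low Dcn probes, did not show this, so probes for 1 transcript disagreed on these arrays. Dcn ILMN_1254458 did not either, at 164.7, 42.4 and 126.6 against 19 to 217 on the others. Over the whole array, 1014 of 20097 tested probes (5.05%) were likewise lower on these 3 arrays than on all others. The cause was not tested.

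Without these 3 arrays the difference of the first Lum probe averaged over genotypes was 0.19, and that of the second was 0.12. With all arrays they were 0.37 and 0.38. Dcn ILMN_2596346 gave log2 differences of -0.44 in wild-type mice, -0.39 in heterozygous mice and -0.41 averaged, against -0.23, 0.06 and -0.09 with all arrays. Dcn ILMN_2604695 gave -1.03 in wild-type and -0.49 in heterozygous mice, against -0.44 and 0.37 with all arrays. Gsn gave -0.98 and -0.00040, against -0.43 and 0.73. The 3 arrays were the lowest of all for these probes, so the shifts follow from leaving them out. For the same reason no result is read from the calls of Dcn ILMN_2596346 in this fit (limma adjusted p = 0.0306 in wild-type mice and 0.00327 averaged). The Dpt call in heterozygous mice was lost (-0.45, limma adjusted p = 0.117). Pi16, Mfap4 and Tcf21 stayed called in both genotypes, with log2 differences of 1.59 and 2.13, 1.00 and 1.44, and -1.02 and -0.80. For Dpep1 the 3 arrays were also the lowest of the right arrays. Without them it gave -1.01 (limma adjusted p = 0.0264) in wild-type and -1.04 (adjusted p = 0.0502, not called) in heterozygous mice. The Dcn, Lum and Gsn differences given here therefore depend on arrays that were set aside after their values were seen.

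**Figure D3:**
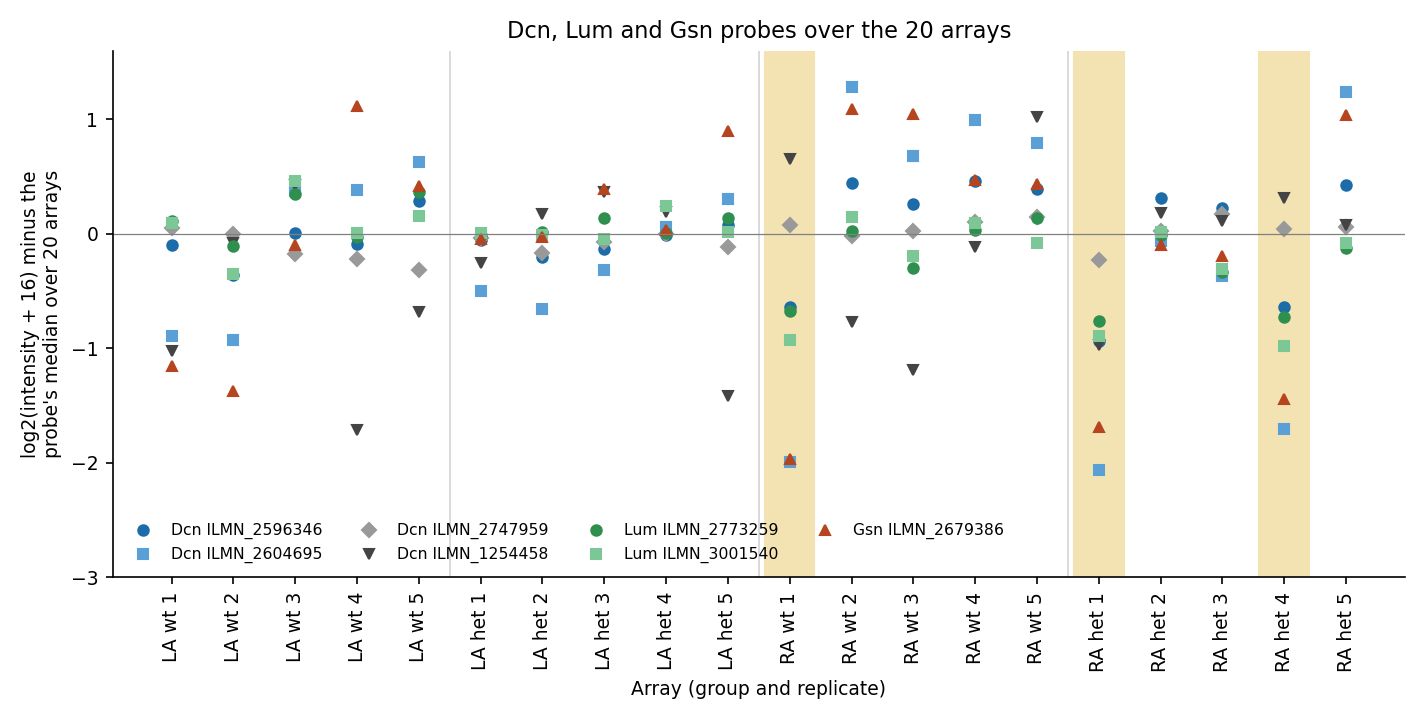
Level of the 7 tested Dcn, Lum and Gsn probes on each array as log2(intensity + 16) minus the probe's median over 20 arrays, in the order LA wt, LA het, RA wt, RA het with replicates 1 to 5. Shading marks RA wt replicate 1 and RA het replicates 1 and 4, where 5 of the 7 probes have their lowest values and Dcn ILMN_2747959 (light grey) and ILMN_1254458 (dark grey) do not.

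Ratios of these genes within an array restate the same values. The log2 ratio of Pi16 to Tcf21 intensity ranged from 1.65 to 2.49 in LA wt and 2.01 to 2.57 in LA het, and from -1.39 to 0.43 in RA wt and -0.85 to 0.90 in RA het. Mfap4 over Tcf21 ranged from 1.51 to 2.01, 1.57 to 2.20, -0.95 to 0.68 and -0.86 to 0.06 in the same order. Both ratios were higher on every left array than on any right array, which follows from the separation of each gene given above. Because probes differ in brightness, only the shift of a ratio between arrays has a meaning, not its size. Against Pdgfra, Pi16 stood at a log2 ratio of -0.25 to 0.30 in LA wt, 0.20 to 0.53 in LA het, -2.33 to -0.90 in RA wt and -2.26 to 0.11 in RA het. For this ratio the highest RA het array lay inside the LA wt range. Tcf21 against Pdgfra stood at -2.45 to -1.89, -2.36 to -1.71, -1.44 to -0.67 and -1.41 to -0.79 in the same order, with the sides separate. These ratios describe the values already tested and carry no separate test.

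The second question was whether these genes differed between heterozygous and wild-type mice. In LA, RA and the test of whether the genotype difference depends on side, 0 of 13 probes were called by limma, against 0.00995% of all tested probes (2 of 20097) in each comparison. At an unadjusted p under 0.05 there were 0 of 13 in each, against 950, 1076 and 609 of all tested probes. The median log2 difference of the 13 probes, heterozygous minus wild type, was 0.053 in LA and -0.052 in RA, where all tested probes had -0.00421 and -0.00175. Heterozygous and wild-type groups overlapped for each of the 13 probes on both sides. The share of all tested probes that overlap was not counted, so this says little by itself.

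Pi16 differed by 0.34 in LA (95% interval -0.29 to 0.97) and 0.38 in RA (-0.25 to 1.01). Mfap4 differed by 0.39 (-0.12 to 0.89) in LA and by less than 0.01 in size in RA (interval -0.51 to 0.50). Tcf21 differed by 0.20 (-0.12 to 0.52) in LA and -0.09 (-0.41 to 0.23) in RA. The intervals of Pi16 and Mfap4 in LA thus reach 1.96-fold and 1.86-fold higher in heterozygous mice, and the missed threshold does not show that the genotypes were alike.

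Dpep1 gave 0.08 (-0.42 to 0.58) in LA and an interval of -0.50 to 0.49 in RA. Pdgfra gave 0.0037 (-0.24 to 0.25) in LA and 0.02 (-0.22 to 0.26) in RA. Dpt gave -0.18 (-0.42 to 0.06) and 0.08 (-0.16 to 0.32). Lum ILMN_2773259 gave -0.08 and -0.24, and Dcn ILMN_2747959 gave 0.05 and -0.05. The widest intervals were those of Dcn ILMN_2604695, from -1.38 to 1.11 in LA and -2.19 to 0.30 in RA. The genotype test of differing sides gave -0.04 (-0.93 to 0.85) for Pi16, 0.39 (-0.32 to 1.11) for Mfap4 and 0.29 (-0.16 to 0.74) for Tcf21.

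**Figure D4:**
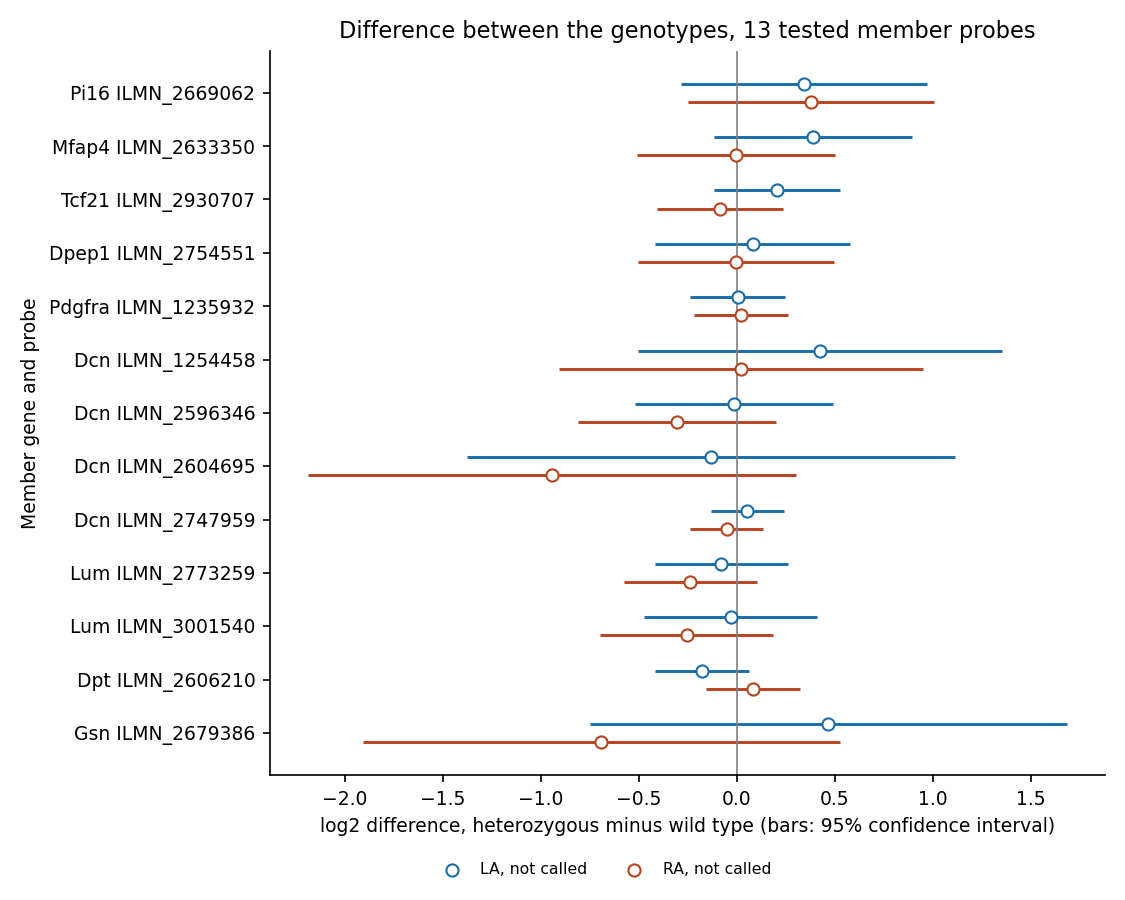
Difference of log2(intensity + 16), heterozygous minus wild type, for the 13 tested probes in LA (blue) and RA (orange), with 95% intervals from limma. Every interval includes 0 and no point is filled, since 0 probes had an adjusted p under 0.05.

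Genes related to these 10 were taken as lists, with the brightest tested probe standing for a gene and the members counted in. Averaged over the genotypes, the 17 tested adventitial and universal fibroblast markers had 7 higher in LA and 3 higher in RA, with a median log2 difference of 0.22 against 0.00651 over all named genes. Over all named genes 8.94% were called in this comparison (997 of 11154), and the counts below are set beside that share. The lists too were chosen with earlier results of these data known, so their counts are descriptions only. Besides Pi16, the left-higher genes included Clec3b (1.03 in wild-type mice, limma adjusted p = 0.0366), which encodes tetranectin, the complement regulator Cd55 (0.57, adjusted p = 0.000338), Limch1 (0.49, adjusted p = 0.00233), the sialomucin Cd34 (0.49, adjusted p = 0.00241) and the microfibril gene Mfap5 (0.55, adjusted p = 0.00576). Igfbp5, which binds insulin-like growth factors, was higher in RA (-0.54, adjusted p = 0.000977), as were Dpt and the signalling ligand Wnt2 (-0.98, adjusted p = 0.0116).

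The 15 tested parenchymal fibroblast markers had 5 higher in LA and 3 in RA, with a median of 0.022. Scara5, a ferritin receptor, had a difference of 2.54, the chemokine Cxcl14 of 2.08 and the serine protease Htra3 of 1.02, all higher in LA (limma adjusted p = 1.01e-06, 1.01e-06 and 3.46e-06). Tcf21, Dpep1 and the glucocorticoid-activating enzyme Hsd11b1 (-0.76, adjusted p = 0.000104) were higher in RA. The list therefore held genes that differed in each direction.

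Of 10 tested activated fibroblast markers 0 were higher in LA and 2 higher in RA, the Wnt modulator Sfrp2 (-1.62, limma adjusted p = 6.02e-05) and Ddah1 (-0.84, adjusted p = 0.000176), an enzyme that breaks down an inhibitor of nitric oxide synthesis. Of 16 general fibroblast markers 1 was called, the gelatinase Mmp2 (0.58, adjusted p = 0.00206, higher in LA). Of 5 PDGF ligands and receptors 0 were called by limma, with differences from -0.09 for Pdgfb to 0.14 for Pdgfra and with Pdgfa at 0.12.

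Among 11 small leucine-rich proteoglycans, Podn was higher in LA (0.52, limma adjusted p = 0.0098) and Epyc and Ecm2 higher in RA (-1.15 and -0.43, adjusted p = 0.000232 and 0.00671). The 14 microfibril and elastic fibre genes had 5 higher in LA and 1 in RA. These included Mfap4, the crosslinking enzyme Lox (0.81, adjusted p = 0.00366) and Fbln2 (0.47, adjusted p = 0.00246) on the left and Emilin2 (-1.47, adjusted p = 1.77e-07) on the right. The 10 transcription factors of the mesoderm and epicardial lineage had 0 higher in LA and 3 higher in RA, which were Msc (-1.92), Tbx20 (-0.85) and Tcf21.

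Of 12 matricellular genes, the list to which Postn belongs, 2 were higher in LA (Sparcl1 at 0.63 and Smoc1 at 0.32) and 2 in RA (Ccn5 at -1.53 and Thbs3 at -0.37). Scin was the single called gene of 6 in the gelsolin family (0.46, limma adjusted p = 0.000866), and Dpep1 of 2 membrane dipeptidases. In both genotype comparisons and the test of differing sides, 0 genes of any of these lists were called by limma. Over all 11154 named genes the counts were 2 in LA, 0 in RA and 0 for the differing sides, so this says little about the lists.

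**Figure D5:**
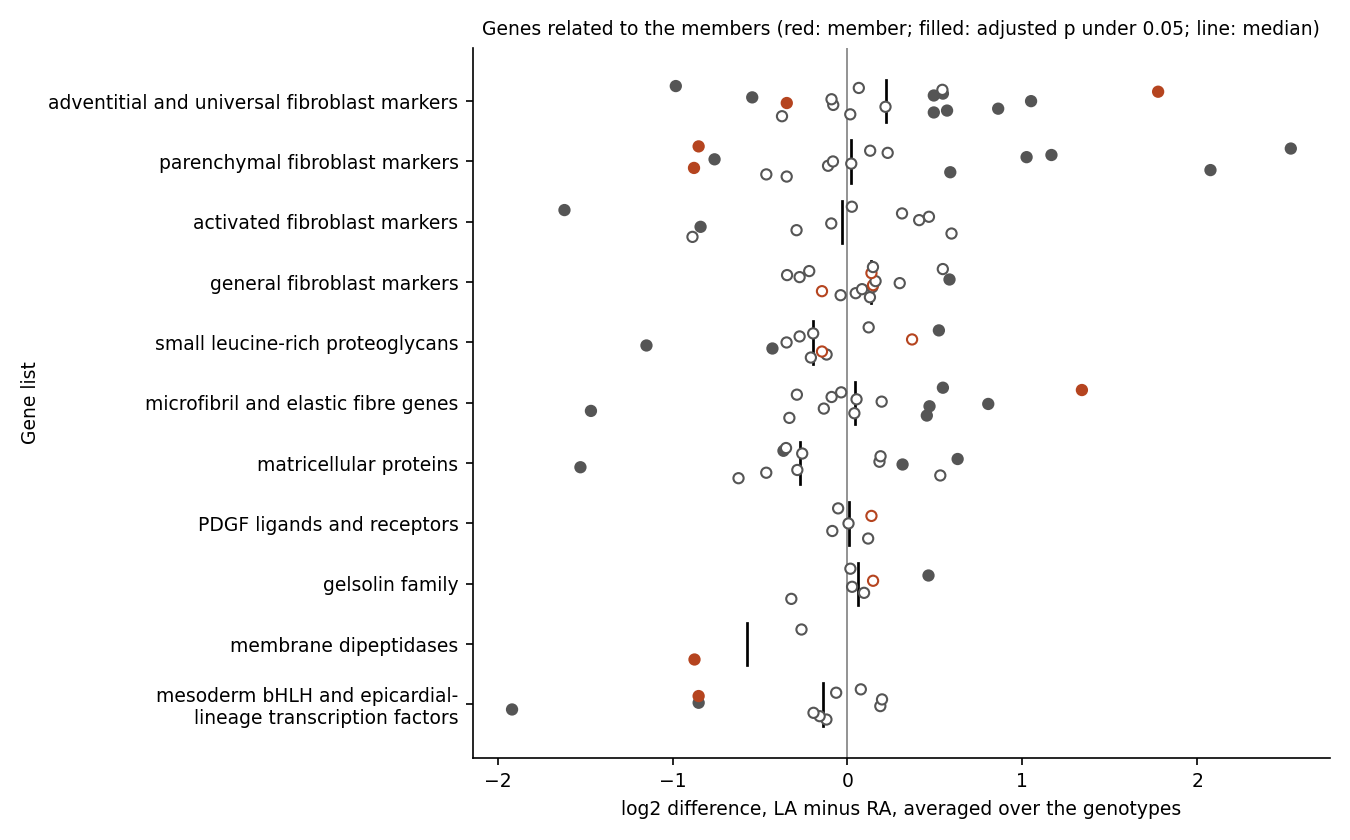
Difference of log2(intensity + 16), left minus right atrium averaged over the genotypes, for each tested gene of 11 lists related to the 10 genes. Red points are the members, of which Postn had no tested probe, filled points have an adjusted p under 0.05 and black lines are list medians, with adventitial markers at 0.22 and matricellular genes at -0.27.

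Markers of some other cell types differed by side as well, and those of others did not. The summed intensity of 8 macrophage markers lay between 3168.2 and 4081.2 in LA wt and between 4618.4 and 6030.6 in RA wt, and overlapped between LA het (4238.9 to 5519.1) and RA het (4337.4 to 6540.7). Averaged over the genotypes, 7 of 8 were called higher in RA and 1 in LA. Over all tested probes 3.46% were called higher in RA and 3.74% higher in LA, which holds beside the counts that follow too. The sum of 9 endothelial markers lay between 10506.3 and 15165.1 in LA wt and between 15228.3 and 18057.7 in RA wt, and between 12024 and 12713.7 in LA het and 12886.6 and 17652.6 in RA het, with 2 of 9 called, both higher in RA. The sum of 6 lymphatic markers was 3864.2 to 5782.7 in LA wt and 2448.1 to 3311.6 in RA wt, and overlapped between LA het (2798.6 to 4549.2) and RA het (2675.3 to 3790.9), with 3 of 5 tested called, all higher in LA. The sums of 11 epicardial markers overlapped (6143.8 to 9082.9 in LA wt, 6675.7 to 8965.4 in RA wt, 2415.4 to 7051.7 in LA het, 5010.1 to 8918.3 in RA het), with 0 of 11 called by limma. Smooth muscle markers summed to 11821.2 to 15067.4 in LA wt and 17942.5 to 35784.9 in RA wt, but to 12771.2 to 39050 in LA het and 15784.1 to 25100.1 in RA het, with Smtn called higher in LA and Des higher in RA among 7 tested. The ventricular markers had overlapping sums, with medians of 8499.6 in LA wt, 6882.4 in RA wt, 8482.9 in LA het and 10774.3 in RA het. Averaged over the genotypes, Myl2 was called higher in RA (-4.43, limma adjusted p = 0.00177), while Myl3 and Myh7 were not called. The ventricular sums were high on RA wt replicate 2 (60699.5) and RA het replicates 1 (36371.8) and 4 (66922.7), against 17614.6 or less on the other arrays. Of the genes in the marker lists, Retn (adipocyte), Cnn1 (smooth muscle), Gfap (Schwann cell), Acan and Hapln1 (cartilage) and Hand1 (ventricle) were detected on no array. The part of these cells in the member differences was not tested.

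With the levels of Adipoq, Upk3b and Myl2, which mark fat, mesothelium and ventricular muscle, as covariates, Pi16 and Mfap4 stayed called in both genotypes and Tcf21 in wild-type mice. Tcf21 was not called in heterozygous mice, with a difference of -0.64 (limma adjusted p = 0.214) against -0.71 without covariates. Dpep1 was not called in wild-type mice (-1.03, adjusted p = 0.248) or averaged (-0.99, adjusted p = 0.119), although both differences were larger in size than without covariates. Dpt was not called in heterozygous mice (-0.41, adjusted p = 0.469). Because Myl2 itself was higher in RA, this fit cannot tell its level apart from the side.

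Without the 4 arrays with a Ucp1 intensity above 100, which leaves 2 LA het and 4 RA het arrays, Pi16 stayed called in heterozygous mice. Mfap4 had a difference of 1.55 (limma adjusted p = 0.0516) and Tcf21 of -0.73 (adjusted p = 0.199), close to 1.54 and -0.71 with all arrays, and neither was called among the fewer arrays. Dpt had -0.39 (adjusted p = 0.481) in heterozygous mice. The wild-type difference of Dpep1, which uses none of the arrays left out, was the same -0.92 and was not called (adjusted p = 0.0522).

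Across the 20 arrays, the named genes whose centred log2 profile lay nearest to that of Pi16 were Dlgap1, Slco2b1 and Mgl2, with root mean square differences of 0.29, 0.38 and 0.41 against an SD of 1.04 for Pi16 itself. The nearest to Mfap4 were Ace, Alcam and Sh3gl2 (0.27, 0.39 and 0.40, SD 0.80). The nearest to Tcf21 were Vwf, Unc5b and Pcolce2 (0.21, 0.21 and 0.22, SD 0.50), of which Vwf is also an endothelial marker in the list above. The nearest to Dpep1 were Ctnnbl1, Prkag3 and Ptk2b (0.29, 0.31 and 0.34, SD 0.58), and to Dpt they were Unc119b, Samd14 and Tlnrd1 (0.15, 0.16 and 0.16, SD 0.25). All these profiles share the same 20 arrays, which include both sides, and the likeness is a description without a test.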

How the data were processed

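The data are intensities of 20 Illumina bead arrays in 4 groups of 5, as deposited by the authors. Per the file headers, each array has 1 column of intensities and 1 of detection p-values. The intensities were deposited after background subtraction, because 33.7% to 33.9% of them are negative on each array, and after quantile normalization, because the sorted arrays differ by 1.8 at most. The detection column was deposited as 1 minus the p-value. The scanner software is not named in the sources read. Per the labels' protocols, RNA was column-purified and copied into biotin cRNA.

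Negative values were set to 0, 16 was added and log2 was taken, with no further correction. Testing required a detection p below 0.05 on 5 arrays or more, which left 20097 probes and 11154 named genes. These were fitted in limma 3.58.1 (R 4.3.3) as 4 group means over all arrays, with eBayes and, for each of 6 contrasts, Benjamini-Hochberg adjustment across the tested probes. Symbols came from the platform annotation (34885 probes with a single symbol, 18 with more, 10378 unnamed) and were updated through RefSeq (GRCm38.p6), which also gave the sequences. Alternatives covered neqc, the offset, the filter, array weights, blocks, covariates and leaving out arrays.

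The 10 genes and the lists were chosen with earlier results of these data known. Besides the members, genes are named from those that, in any contrast, were among the 4 called or 2 uncalled genes of smallest p in a list, and for each called member the 3 nearest profiles. The test was tried on simulated data. Separate mice gave the arrays of a group, per the labels, while which left and right arrays share a mouse is not stated. The number of arrays limits the precision. The targeted gene is not reported here.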

Additional observations from a re-analysis of the deposited data

Results flagged for a closer look

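The 13 tested probes form 52 groups of 5 arrays. By Dixon's test on linear intensities, 5 groups (9.62%) had 1 array far from the other 4. The nominal rate of about 1 in 20 assumes normal and independent values, while these probes share the same arrays. The rate over all tested probes was not computed, so no excess can be read from this share. Pi16 stood at 1437.6 in RA het replicate 1, with the nearest other array at 660.6. The dim Dcn probe ILMN_1254458 stood at 42.4 in RA het replicate 1, with the nearest at 105. Dcn ILMN_2596346 stood at 4985.1 in RA wt replicate 1, with the nearest at 9312. Lum ILMN_3001540 stood at 3106.3 in LA het replicate 4, with the nearest at 2644.6. Dpt stood at 5390.6 in LA wt replicate 1, with the nearest at 3916.8.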

How the results depend on the processing

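Of 2698 comparisons of a tested probe under another setting, 2654 stayed on the same side of the threshold, 28 lost a call and 16 gained one. The sign was the main one in 2595 and the other in 103, 0 of which were called in either setting. Pi16 stayed called under all settings tried, in each genotype and averaged (35, 35 and 34 settings). Mfap4 and Tcf21 did in wild-type mice, and in heterozygous mice in 34 and 33 of 35. Dpep1 stayed called in 23 of 35 in wild-type and in 33 of 34 averaged, and Dpt in 25 of 35 in heterozygous mice. Over all probes, the count of called probes was 656, 512 and 1447 for the sides (wild type, heterozygous, averaged). With Adipoq, Upk3b and Myl2 as covariates it was 351, 211 and 491. In heterozygous mice it was 316 with the compared groups alone and 248 without the Ucp1 arrays. A fit of the compared groups alone has no value for the averaged or differing-sides comparisons. For the genotype in LA, 2 probes became 1 with neqc and 0 with an offset of 64, with detection on all 20 arrays, with the covariates and without the Ucp1 arrays. For the genotype in RA and for the differing sides, 2 became 0 with detection on all 20 arrays. Leaving out each array in turn gave 485 to 769, 345 to 526 and 1223 to 1559 for the sides, 2 to 4 for the genotype in LA (4 without LA het replicate 2), 2 each time in RA, and 2 to 3 for the differing sides. The causes were not tested. Postn, at most 3 of 20 arrays above background, was limited by signal.

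The replicate numbers were not used to pair samples. Across 10 pairs of left and right arrays with the same number, correlations of deviations lay between -0.405 and 0.335, 3 exceeded 0.1 and 2 arrays' best match had the same number. With the number as a fixed replicate block the counts for the sides were 652, 489 and 1493, and with genotype and number as a random block 677, 532 and 1486. The genotype and differing-sides counts stayed at 2. The block also called Lum ILMN_2773259 averaged over the genotypes (0.37, adjusted p = 0.0347) and Dpep1 in heterozygous mice (-0.84, adjusted p = 0.0462).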
